A study of Oncorhynchus mykiss with 72 samples.

Results

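The 6 features described here are the rows named 12S and 16S ribosomal RNA in gill RNA libraries of redband trout (Oncorhynchus mykiss). They are rRNA_12S_1, rRNA_12S_2, rRNA_12S_3, rRNA_16S_1, rRNA_16S_2 and rRNA_16S_3. They were taken by name from the 3 deposited tables, where they are 6 of the 23234 features present in every table. The remaining rows named as ribosomal RNA are rRNA_18S_1, rRNA_28S_1 and rRNA_28S_2, the 3 nuclear features. 12S and 16S are the usual names of the mitochondrial ribosomal RNAs of vertebrates. The mitochondrial origin rests on these names alone, because the files pair no feature with a sequence, a position or a gene name.

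A vertebrate mitochondrion builds its own ribosomes around the 12S RNA of the small subunit and the 16S RNA of the large subunit. Both are transcribed from the mitochondrial genome, next to each other and from a shared promoter region. These ribosomes translate the few proteins that the mitochondrial genome encodes, all of them parts of the respiratory chain and ATP synthase. The gill holds ionocytes, cells rich in mitochondria that power ion transport, beside epithelial, blood and immune cells. In whole gill RNA, fewer such cells and less mitochondrial RNA per cell cannot be told apart.

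The series compared Little Jacks, a strain from a desert creek, Keithly, a strain from a montane creek, and the F1 cross between them. Fish were held at 28 °C or at the control temperature of 15 °C, and gills were sampled on days 1, 3, 7 and 28. That gives 24 groups of 3 libraries, 72 in all, so 12 libraries for each strain and temperature. Each library held a pool of RNA from 3 fish samples that came out of a single rearing tank, so the spread below is between such pools. Total RNA was depleted of ribosomal RNA before sequencing. All values below therefore measure what the depletion left behind, and the efficiency of depletion in single libraries is not known from the files. The gill label was not checked against marker genes, because the features carry no gene names.

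Values are printed in the deposited unit: reads of a feature over the library's effective size, scaled apart for the 3 strains. Whole reads could be recovered from them and a library held between 0.276 M and 19.9 M of them (M, mega). The 12S and 16S features together had between 660 and 62304 reads per library. The 95% Wilson interval of their share of reads spanned 0.784% to 7.63% of the share to either side, a counting error that leaves out variation from amplification. 7 libraries shared a large deviation from their groups over 15983 features. In Little Jacks these were replicate 1 on day 1, replicate 3 on day 7 and replicate 3 on day 28, all at 28 °C. In the F1 cross they were replicate 2 at 28 °C and replicate 2 at 15 °C, and in Keithly replicate 3 at 28 °C and replicate 2 at 15 °C, all on day 28. The 7 lay past the largest gap in scores on the first component, the main shared axis of the deviations. That gap was 0.087, against 0.057 for the next, and the cut took a single side. Replicate 3 of the F1 cross at 15 °C on day 28 scored -0.264 and was kept, while the lowest of the 7 scored 0.199. Results are given with and without these 7 where a call changed, and in places where only its size did. A further 3 libraries held fewer than 1 M recovered reads. Each was a replicate 1: of the F1 cross at 28 °C, day 28 (0.455 M), of the F1 cross at 15 °C, day 3 (0.614 M), and of Keithly at 15 °C, day 28 (0.276 M). The authors' library table gives 22.4 to 72.7 M quality reads per library, of which 0.73% to 42.5% matched the transcriptome. These low numbers are therefore of reads recovered, not of reads sequenced.

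One feature held most of the reads. rRNA_12S_2 had a median of 2492 units over the 72 libraries, with a lowest value of 1172 and a highest of 4712. It made up a median of 90.0% of the 12S and 16S reads, between 80.5% and 95.2% in single libraries. By value it ranked between place 6 and place 132 among all features of a library. rRNA_16S_1 was next, with a median of 154 units and a range from 31.1 to 416, a median of 5.62% of these reads. rRNA_12S_3 had a median of 66.1 units, with a range from 26.5 to 243. The other 3 features were minor. rRNA_12S_1 had a median of 23.6 units (5.89 to 77.7), rRNA_16S_3 of 14.7 (4.22 to 78.1) and rRNA_16S_2 of 8.18 (1.31 to 43.5). Each feature was thus detected in every library, although rRNA_16S_2 rested on 3 reads or fewer in 2 of them. No length is given for any of them, so these levels cannot be compared per base. Reads that match more than 1 feature of the same RNA may have been split among them, because how such reads were counted is not given in the sources used here.

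Spread between libraries of a group differed among the features. On the log2 scale the pooled SD within groups was 0.37 for rRNA_12S_2, 0.42 for rRNA_12S_3, 0.52 for rRNA_16S_1, 0.62 for rRNA_12S_1, 0.70 for rRNA_16S_2 and 0.71 for rRNA_16S_3. The nuclear rRNA_28S_1, rRNA_28S_2 and rRNA_18S_1 had 0.71, 1.02 and 1.37. The most abundant mitochondrial feature was therefore the steadiest of the 9. A single library, replicate 3 of the Little Jacks group at 28 °C on day 1, held the highest value of rRNA_12S_1, rRNA_16S_1, rRNA_16S_2 and rRNA_16S_3 in the whole series. It also held the highest nuclear rRNA_28S_1 and rRNA_28S_2, at 16842.5 and 2569 units, but not the highest rRNA_18S_1. Its high values were thus not limited to mitochondrial features. In that library rRNA_16S_1 had 416 units, against 83.8 and 184 in the other 2 libraries of its group.

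**Figure D1:**
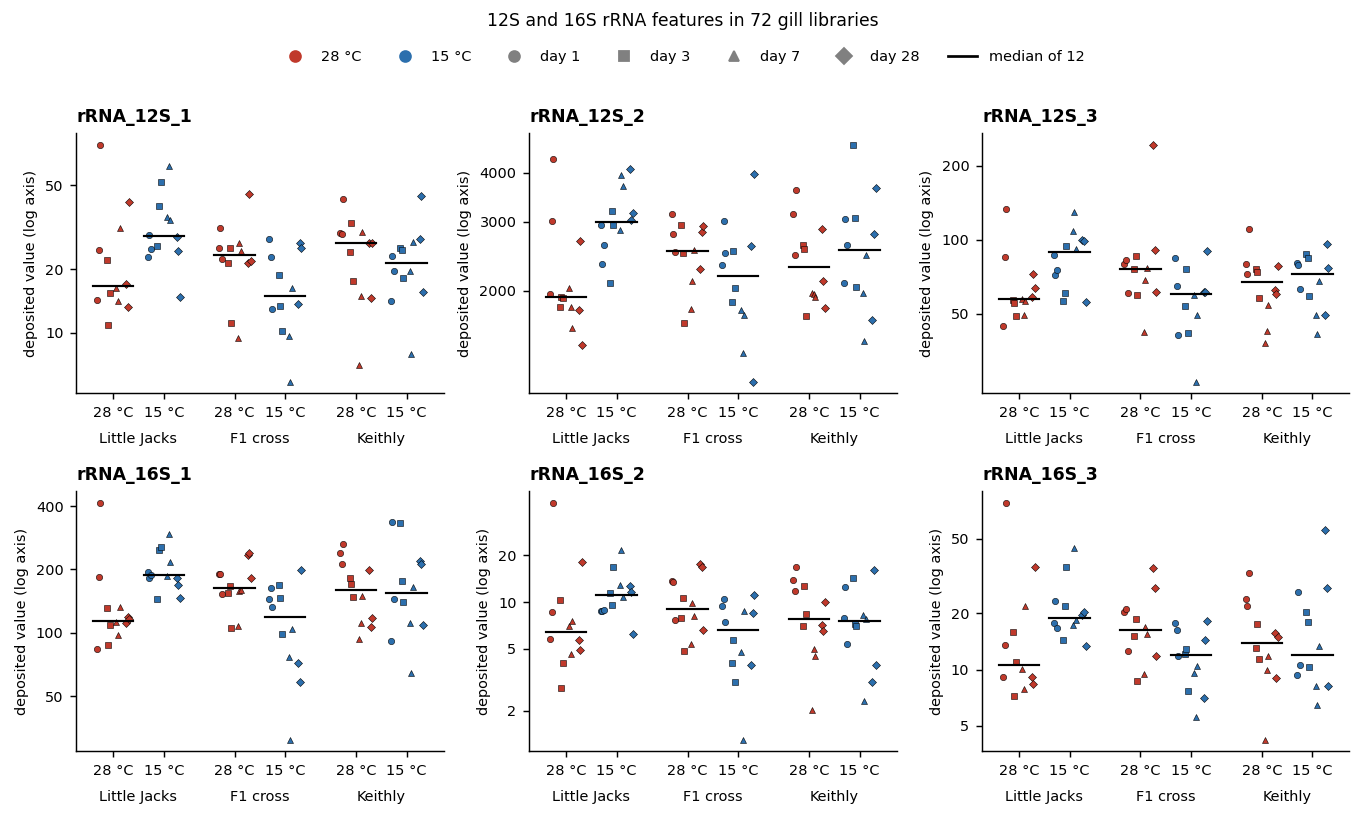
Deposited value (log axis) of each 12S and 16S feature in the 72 libraries, by strain and temperature; each point is 1 library, its shape gives the day and the bar is the median of 12. In Little Jacks the 28 °C median lay below the 15 °C median for every feature, and in the F1 cross above it; 1 Little Jacks library of day 1 at 28 °C stands above its group for rRNA_16S_1 at 416 units.

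In Little Jacks 3 of the 6 features fell at 28 °C, the main 12S and the main 16S feature among them, in a table where 28.3% of 24343 features were called. The other 3 had negative effects that did not pass. rRNA_12S_2, the main 12S feature, ranged from 1450 to 4337 units at 28 °C with a median of 1923, against 2091 to 4085 with a median of 2989 at 15 °C. On day 1 it had 1960, 3008 and 4337 units at 28 °C, against 2946, 2343 and 2613 at 15 °C. On day 3 it had 1820, 1930 and 1916 units, against 2091, 3198 and 2941. The day 1 groups overlapped, and the day 3 groups did not. On day 7 it had 2029, 1815 and 1604 units at 28 °C, against 2859, 3937 and 3689 at 15 °C. On day 28 it had 1788, 2668 and 1450 units, against 4085, 3033 and 3146. On days 7 and 28 every 28 °C library lay below every 15 °C library. The limma adjusted p on days 3, 7 and 28 was 0.327, 0.0787 and 0.122, so no single day passed. How many of all features have groups of 3 libraries without overlap was not computed. A lack of overlap, here and below, is therefore a description only. Averaged over the 4 days, rRNA_12S_2 fell by 0.53 on the log2(value + 0.5) scale (SE 0.15, limma adjusted p = 0.00959), lower on 3 of the 4 days. This call held in each of the 31 alternatives, where its adjusted p ran from 0.00123 to 0.0211.

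rRNA_16S_1, the main 16S feature, was likewise lower at 28 °C from day 3 on in Little Jacks. On day 1 it had 83.8, 184 and 416 units at 28 °C, against 195, 182 and 188 at 15 °C, and the groups overlapped. On day 3 it had 132, 88.0 and 109 units at 28 °C, against 145, 247 and 254 at 15 °C. On day 7 it had 112, 98.03 and 133 units, against 186, 294 and 218. Neither day had overlapping groups. On day 28 it had 112, 119 and 116 units at 28 °C, against 182, 168 and 146 at 15 °C, again without overlap. The limma adjusted p on days 3, 7 and 28 was 0.122, 0.134 and 0.502, so no single day passed. The averaged effect of rRNA_16S_1 fell by 0.62 (log2, SE 0.18, limma adjusted p = 0.0141), with adjusted p from 0.000270 to 0.0287 over its 31 alternatives.

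The third called feature was rRNA_12S_3, which fell by 0.41 (log2, SE 0.15, limma adjusted p = 0.0409). It had a median of 57.1 units at 28 °C and 89.3 at 15 °C. This call was close to the threshold and was lost when any 1 of 14 of the 24 Little Jacks libraries was left out, with effects of -0.31 to -0.42 and adjusted p up to 0.0807 in these 14. rRNA_12S_1, rRNA_16S_2 and rRNA_16S_3 had effects of -0.54, -0.52 and -0.53 with limma adjusted p of 0.115, 0.189 and 0.221, so they did not pass. The median effect of the 6 features was -0.53, beside a median of -0.0015 over all features. With edgeR's quasi-likelihood test, recovered reads gave 3 calls as well, where it called 8456 of 24343 features. Apart from edgeR, the share of all features called in an alternative fit is not given, here or below. Counts from such fits therefore describe only how far the calls moved. All 6 were called without replicate 3 of the day 1 group at 28 °C, the library with the high values above. Without the 7 deviating libraries 5 were called, with effects of -0.38 for rRNA_12S_2 and -0.51 for rRNA_16S_1. Scaling the reads to the column total called all 6, at -0.85 to -1.06, but that scaling also moved the median of all features by -0.40. The 3 nuclear features took 0.375% ± 0.354 of recovered reads at 28 °C in Little Jacks, against 0.580% ± 0.342 at 15 °C (SD, n = 12 each). No nuclear feature was called, but their averaged effects were negative too, with wider errors than the called features. They were -0.40 for rRNA_28S_1 (log2, SE 0.31), -0.34 for rRNA_28S_2 (SE 0.35) and -0.12 for rRNA_18S_1 (SE 0.67). By day rRNA_28S_1 had 1.03, -0.48, -1.17 and -0.99 on days 1, 3, 7 and 28, while rRNA_18S_1 was positive on day 28, at 0.42. The part of depletion in these effects was not tested.

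The 3 minor features of Little Jacks lay lower at 28 °C by their medians, with ranges that overlapped. rRNA_12S_1 ran from 10.8 over a median of 16.7 to 77.7 units at 28 °C, against 14.8, 28.7 and 61.4 at 15 °C. rRNA_16S_2 ran from 2.82 over 6.41 to 43.5 units at 28 °C, against 6.24, 11.1 and 21.7 at 15 °C. rRNA_16S_3 ran from 7.23 over 10.54 to 78.1 units at 28 °C, against 13.4, 18.9 and 44.6 at 15 °C. In all 3 the highest value at 28 °C came from replicate 3 of day 1 and exceeded every 15 °C library.

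In the F1 cross 1 of the 6 features, the main 16S feature, rose at 28 °C, in a table where 27.2% of 24011 features were called. The other 5 had positive effects that did not pass. rRNA_16S_1 had 191, 190 and 153 units at 28 °C on day 1, against 145, 163 and 133 at 15 °C. On day 3 it had 155, 166 and 105 units, against 170, 147 and 98.9. The groups overlapped on both days. On day 7 it had 108, 158 and 160 units at 28 °C, against 77.0, 31.1 and 105 at 15 °C, without overlap (limma adjusted p = 0.104). On day 28 it had 233, 240 and 182 units, against 71.6, 58.4 and 199, where 1 control library lay among the 28 °C libraries. Averaged over days, rRNA_16S_1 rose by 0.66 (log2, SE 0.19, limma adjusted p = 0.0128), higher on 4 of 4 days.

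rRNA_12S_2 of the F1 cross ranged from 1649 to 3139 units with a median of 2524 at 28 °C, against 1172 to 3960 with a median of 2178 at 15 °C. Its effect of 0.21 (SE 0.16, limma adjusted p = 0.367) did not pass. The other features had 0.50 for rRNA_12S_1, 0.46 for rRNA_12S_3, 0.67 for rRNA_16S_2 and 0.52 for rRNA_16S_3, with limma adjusted p from 0.0512 to 0.0932. The temperatures overlapped for each of these 4. rRNA_12S_1 ran from 9.51 over a median of 23.3 to 45.4 units at 28 °C, against 5.89, 15.0 and 27.9 at 15 °C. rRNA_12S_3 ran from 42.0 over 76.2 to 243 units at 28 °C, against 26.5, 60.2 and 89.8 at 15 °C. The value of 243 units came from the library of 0.455 M reads. rRNA_16S_2 ran from 4.87 over 9.01 to 17.5 units at 28 °C, against 1.31, 6.60 and 11.1 at 15 °C. rRNA_16S_3 ran from 8.70 over 16.2 to 35.0 units at 28 °C, against 5.56, 12.0 and 18.1 at 15 °C. Each median was higher at 28 °C. edgeR's quasi-likelihood test also called 1, where it called 7089 of 24011 features. The median effect of the 6 was 0.51, beside 0.016 over all features. The count was 1 without the 7 deviating libraries, at 0.56 for rRNA_16S_1. It became 2 to 4 when 1 of 7 single libraries was left out: 4 without replicate 1 on day 7 or replicate 3 on day 28 at 28 °C; 3 without replicate 3 on day 1 or day 3 at 28 °C, or replicate 3 on day 7 or day 28 at 15 °C; and 2 without replicate 2 on day 3 at 15 °C. Scaling to the column total left no call, with 0.46 for rRNA_16S_1 (adjusted p = 0.130) and a shift of -0.19 in the median of all features.

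In Keithly no 12S or 16S feature passed the test. rRNA_12S_2 ranged from 1718 to 3611 units with a median of 2292 at 28 °C, against 1490 to 4712 with a median of 2538 at 15 °C. rRNA_16S_1 ranged from 93.4 to 264 units with a median of 160 at 28 °C, against 64.2 to 337 with a median of 154 at 15 °C. The temperatures overlapped widely for both. rRNA_12S_3 had medians of 67.4 units at 28 °C and 72.2 at 15 °C, rRNA_12S_1 26.6 and 21.4, rRNA_16S_2 7.72 and 7.51, and rRNA_16S_3 13.9 and 12.0, in the same order of temperatures. Effects averaged over days lay between -0.10 and 0.15 for the 6 features, with limma adjusted p from 0.676 to 0.975. 0 of 6 were called, where 26% of the 24174 features were. None had an unadjusted p under 0.05, beside 8748 of 24174 features, or an edgeR call, beside 7166. The sign of these small effects depended on the scaling. Scaling to the column total gave negative effects for all 6 and called rRNA_12S_2 at -0.43 and rRNA_12S_3 at -0.39, with a shift of -0.30 in the median of all features.

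**Figure D2:**
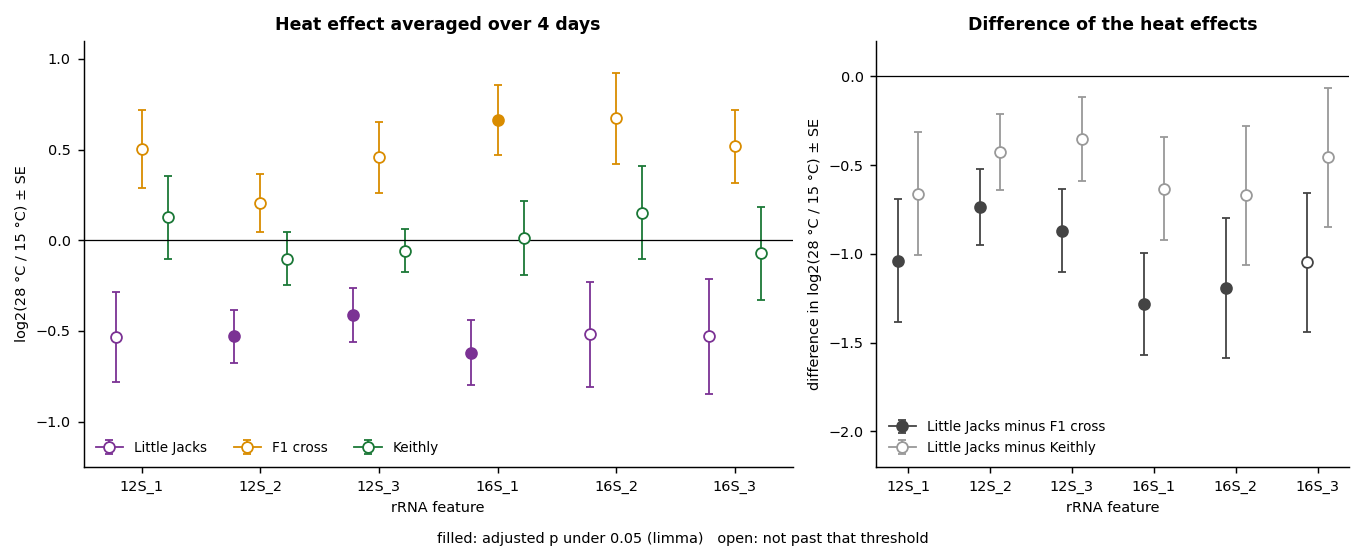
Left, log2 difference between 28 °C and 15 °C averaged over 4 days (± SE) for each feature and strain, on the log2(value + 0.5) scale; right, the difference of these effects between strains (± SE). Filled points passed an adjusted p under 0.05 in limma: 3 for Little Jacks, 1 for the F1 cross, none for Keithly and 5 for the difference between Little Jacks and the F1 cross. Of all features, 28.3%, 27.2%, 26% and 9.94% passed in these comparisons, in this order.

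The heat effects of Little Jacks and the F1 cross were then compared directly. Little Jacks minus F1 cross came to -1.28 for rRNA_16S_1 (log2, SE 0.29, limma adjusted p = 0.00159) and -0.87 for rRNA_12S_3 (SE 0.23, 0.00991). rRNA_12S_2 had -0.74 (SE 0.21, 0.0178), rRNA_16S_2 -1.19 (SE 0.39, 0.0419) and rRNA_12S_1 -1.04 (SE 0.35, 0.0434). rRNA_16S_3, at -1.05 (SE 0.39), had an adjusted p of 0.0772. Thus limma called 5 of 6, all lower in Little Jacks, where it called 9.94% of 23234 features. edgeR's quasi-likelihood test called 4 of 6, where it called 4011 of the 23234 features. The median of the 6 was -1.04, beside -0.055 over all features.

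The calls of rRNA_16S_1 and rRNA_12S_3 held in all 56 alternatives. Those of rRNA_12S_1 and rRNA_16S_2 were lost on leaving out 28 and 25 of the 48 libraries, 1 at a time, with adjusted p up to 0.0808 and 0.0763. The count was then as low as 3, for example without replicate 1 of the Little Jacks group at 28 °C on day 1. Without the 7 deviating libraries the count was again 5, but rRNA_12S_2 had -0.46 (adjusted p = 0.121) and rRNA_16S_3 entered at -1.16.

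No difference of heat effects was called for Little Jacks minus Keithly or for the F1 cross minus Keithly. Little Jacks minus Keithly gave -0.35 to -0.67 for the 6 features, with limma adjusted p from 0.277 to 0.598. 1 of the 6 had an unadjusted p under 0.05, beside 3508 of all 23234 features, and limma called 2.23% of all features. edgeR called 0 of the 6, where it called 1216 of 23234 features. The F1 cross minus Keithly gave 0.31 to 0.65, with adjusted p from 0.237 to 0.689. 2 had an unadjusted p under 0.05, beside 3606 of all 23234 features, and limma called 4.35% of all features. edgeR called 0 of the 6, where it called 1141 of 23234 features. Keithly thus lay between the other strains for each feature, without a difference from either that passed.

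Levels across strains were set on a common scale by joining the recovered reads with TMM factors, as reads per 1 M reads (CPM). At 15 °C the means of rRNA_12S_2 were 2499 ± 829 CPM in the F1 cross, 3484 ± 681 in Little Jacks and 2918 ± 1014 in Keithly (SD, n = 12 each). rRNA_16S_1 had 130 ± 56.5 CPM in the F1 cross, 227 ± 50.5 in Little Jacks and 194 ± 97.7 in Keithly. The mean was highest in Little Jacks and lowest in the F1 cross for each of the 6 features, although for rRNA_16S_3 the medians of the F1 cross and Keithly were 13.5 and 13.2 CPM, in the other order. The F1 cross minus the parental mean was -0.75 for rRNA_16S_1 (log2, SE 0.20, limma adjusted p = 0.0109) and -0.68 for rRNA_12S_1 (SE 0.21, 0.0271). The other 4 had -0.37 to -0.60 with adjusted p from 0.0627 to 0.136. In all limma called 2 of 6, where it called 10.7% of all features. edgeR also called 2 of 6, where it called 2994 of 23234 features.

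The rRNA_12S_1 call in this comparison was lost without replicate 3 on day 3, replicate 1 on day 7 or replicate 2 on day 7 of the F1 cross at 15 °C, leaving 1 call, at -0.57 to -0.63 for rRNA_12S_1. Without replicate 3 of the F1 cross group at 15 °C on day 28 the count was 4, and column-total scaling also gave 4. Little Jacks minus Keithly at 15 °C ranged from 0.30 to 0.68, with limma adjusted p from 0.394 to 0.694. It gave 0 calls, by edgeR as well, where limma called 0.189% of all features and edgeR 51 of 23234. An unadjusted p under 0.05 was reached by 2 of 6, beside 2103 of 23234 features. The libraries of the F1 cross at 15 °C also had the lowest percent of reads matched to the transcriptome, 17.8% ± 8.45, against 24.1% ± 7.93 in Little Jacks and 21.0% ± 8.37 in Keithly (SD, n = 12 each), and the part of this in the levels was not tested.

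At 28 °C the strains lay closer together. rRNA_12S_2 had 2241 ± 421 CPM in the F1 cross, 1988 ± 739 in Little Jacks and 2108 ± 519 in Keithly (SD, n = 12 each). rRNA_16S_1 had 152 ± 36.7 CPM in the F1 cross, 129 ± 82.5 in Little Jacks and 146 ± 48.4 in Keithly. The F1 cross minus the parental mean was 0.03 to 0.29 over the 6 features, with limma adjusted p from 0.758 to 0.981 and 0.0775% of all features called. Little Jacks minus Keithly was -0.27 to 0.07, with adjusted p from 0.457 to 0.995 and 1.76% of all features called. Neither gave a call in limma or edgeR, where edgeR called 8 and 401 of 23234 features, in this order. None of the 6 had an unadjusted p under 0.05 in either, beside 1553 and 3584 of 23234 features.

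On single days no feature passed in any strain, with 3 libraries against 3. An unadjusted p under 0.05 was reached by 8 of the 24 combinations of feature and day for Little Jacks. The F1 cross had 3 and Keithly 0, and edgeR called 0 for each strain. Such a p was reached by 6919, 5249, 4297 and 4246 of all 24343 Little Jacks features on days 1, 3, 7 and 28. edgeR called 3758, 2068, 904 and 859 of these 24343. On the same days the F1 cross had 5614, 6085, 3705 and 4723 of 24011, beside 3860, 2088, 1434 and 1130 edgeR calls. Keithly had 5764, 4800, 4397 and 5575 of 24174, beside 4161, 2252, 1856 and 1123 edgeR calls. In Little Jacks the lowest adjusted p was 0.0629, for rRNA_12S_3 on day 7 at -0.999 (log2, SE 0.29). 15.4%, 7.67%, 3.84% and 3.8% of all features were called on days 1, 3, 7 and 28 there. Effects were positive for 5 of the 6 on day 1, from -0.02 to 0.55, and negative for all 6 on each later day, from -0.04 to -1.253. In the F1 cross the lowest adjusted p was 0.0718, for rRNA_16S_1 on day 28 at 1.199 (SE 0.39). All 24 effects of the F1 cross were positive, and 12.5%, 10.3%, 4.78% and 5.63% of all features were called on the 4 days. Keithly had 11 positive and 13 negative effects, where 12.6%, 7.25%, 5.65% and 6.81% of all features were called.

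These counts of 0 moved with single libraries, where the share of all features called is not given. In Little Jacks, 4 calls appeared without replicate 1 of day 1 at 28 °C, 3 without replicate 3 of that group, 1 without replicate 3 of day 28 at 28 °C, 1 without replicate 3 of day 28 at 15 °C, and 6 without the 7 deviating libraries. The F1 cross had 1 call without replicate 2 of day 7 at 15 °C and 2 without replicate 3 of day 28 at 15 °C. Keithly had 1 without replicate 3 of day 28 at 15 °C.

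Between days 1 and 28, the change in the heat effect was not called for any feature by limma or edgeR. It was negative for all 6 in Little Jacks, from -0.28 to -0.999, and in Keithly, from -0.33 to -1.72. It was positive for all 6 in the F1 cross, from 0.04 to 0.93. An unadjusted p under 0.05 was reached by 1 feature of Little Jacks, none of the F1 cross and 1 of Keithly. Over all features it was reached by 4218 of 24343, 3417 of 24011 and 4162 of 24174, in this order. After adjustment 4.76%, 3.59% and 4.44% of all features were called, and edgeR called 1199, 956 and 1184. The lowest limma adjusted p was 0.197, for rRNA_12S_2 in Little Jacks at -0.999 (SE 0.41), and 1 Little Jacks feature was called without the 7 deviating libraries. At 15 °C, day 28 minus day 1 ranged from -0.23 to 0.37 for Little Jacks, from -0.64 to 0.19 for the F1 cross and from -0.42 to 0.74 for Keithly. That comparison gave 0 calls in limma and edgeR, where limma called 0.822%, 0.0167% and 0.827% of all features and edgeR 219, 3 and 164. No member had an unadjusted p under 0.05 in any strain, beside 1953 of 24343, 1988 of 24011 and 4112 of 24174 features. Without replicate 3 of the Keithly group at 15 °C on day 28, both Keithly comparisons had 1 call.

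Shares are of the recovered reads of a library, which by group came to 81.2% to 94.2% of the reads matched to the transcriptome. As such a share, the 6 features together took between 0.0841% and 0.628%. In Little Jacks they took 0.133%, 0.228% and 0.338% at 28 °C on day 1, against 0.397%, 0.324% and 0.355% at 15 °C. On day 3 they took 0.212%, 0.200% and 0.216%, against 0.278%, 0.420% and 0.383%. The day 1 groups overlapped in 1 library, and those of day 3 did not. On day 7 they took 0.241%, 0.216% and 0.122% at 28 °C, against 0.388%, 0.481% and 0.437% at 15 °C. On day 28 they took 0.224%, 0.325% and 0.0975%, against 0.519%, 0.390% and 0.398%. The lowest library of the 28 °C group on days 1, 7 and 28 was each time the deviating one.

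Averaged over days, the Little Jacks share at 28 °C differed by -0.97 from that at 15 °C (log2, SE 0.19), 0.511 of the control level. It was lower on 4 of 4 days (exact permutation test within days, two-sided, adjusted p = 0.0003 over 12 tests). Without the deviating libraries the difference was -0.68 (adjusted p = 0.0012). At 28 °C the 10 most abundant features of a library took 19.5% ± 8.00 of its reads, against 8.64% ± 1.09 at 15 °C (SD, n = 12 each). With these 10 taken out of the denominator the difference was -0.78 (adjusted p = 0.000975). On the deposited scale the summed value of the 6 features was 2455 ± 942 at 28 °C, against 3426 ± 650 at 15 °C, a difference of -0.53 (log2, SE 0.13, exact permutation adjusted p = 0.0167). That difference was -0.39 (adjusted p = 0.0847) without the deviating libraries, and over all its alternatives the adjusted p ran from 0.0013 to 0.0847. By day the summed value differed by 0.16, -0.55, -0.94 and -0.78 (log2) on days 1, 3, 7 and 28. The share differed by -0.72, -0.76, -1.23 and -1.17. Scaled to the column total, the median of all features differed by -0.85, -0.20, -0.21 and -0.33. On day 1 the share thus fell less than this median, and the summed value was higher at 28 °C.

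The F1 cross showed no difference in share that passed. It took 0.262% ± 0.0535 of reads at 28 °C, against 0.270% ± 0.0992 at 15 °C (SD, n = 12 each), a difference of 0.04 (log2, SE 0.21, exact permutation adjusted p = 0.894). The sign turned to -0.12 without the deviating libraries and to -0.14 without replicate 2 of the 15 °C group on day 28 alone, which held 0.0841%, the lowest share of the series. By day the log2 differences ran from -0.58 on day 1 over -0.06 and 0.30 to 0.50 on day 28. Scaled to the column total, the median of all features differed by -0.69, -0.015, -0.12 and 0.099 on days 1, 3, 7 and 28. On day 1 the share thus fell less than this median, and on day 3 more. The summed deposited value was 2807 ± 512 at 28 °C, against 2451 ± 817 at 15 °C, a difference of 0.24 (SE 0.15, exact permutation adjusted p = 0.211), positive on 4 of 4 days. Without replicate 3 of the 15 °C group on day 28 it was 0.34 (adjusted p = 0.0314). Over all alternatives the difference ran from 0.12 to 0.50, with adjusted p from 0.0314 to 0.566.

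In Keithly the share was 0.237% ± 0.0488 at 28 °C, against 0.330% ± 0.121 at 15 °C (SD, n = 12 each). The difference was -0.43 (log2, SE 0.16, exact permutation adjusted p = 0.0382), lower on 4 of 4 days, although the groups overlapped on every day. This call was lost on leaving out 9 of the 24 libraries, 1 at a time, with adjusted p up to 0.0728. It was also lost without the deviating libraries, at -0.39 (adjusted p = 0.0847), and with the 10 most abundant features taken out of the denominator, at -0.27 (adjusted p = 0.211). Those 10 took 18.8% ± 7.83 of reads at 28 °C, against 9.41% ± 2.88 at 15 °C. On the deposited scale the summed value differed by -0.10 (SE 0.15, exact permutation adjusted p = 0.782). By day it differed by 0.27, -0.43, 0.015 and -0.24 (log2) on days 1, 3, 7 and 28. The share differed by -0.49, -0.72, -0.16 and -0.34. Scaled to the column total, the median of all features differed by -0.73, -0.30, -0.21 and 0.075. On days 1 and 7 the share thus fell less than this median.

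**Figure D3:**
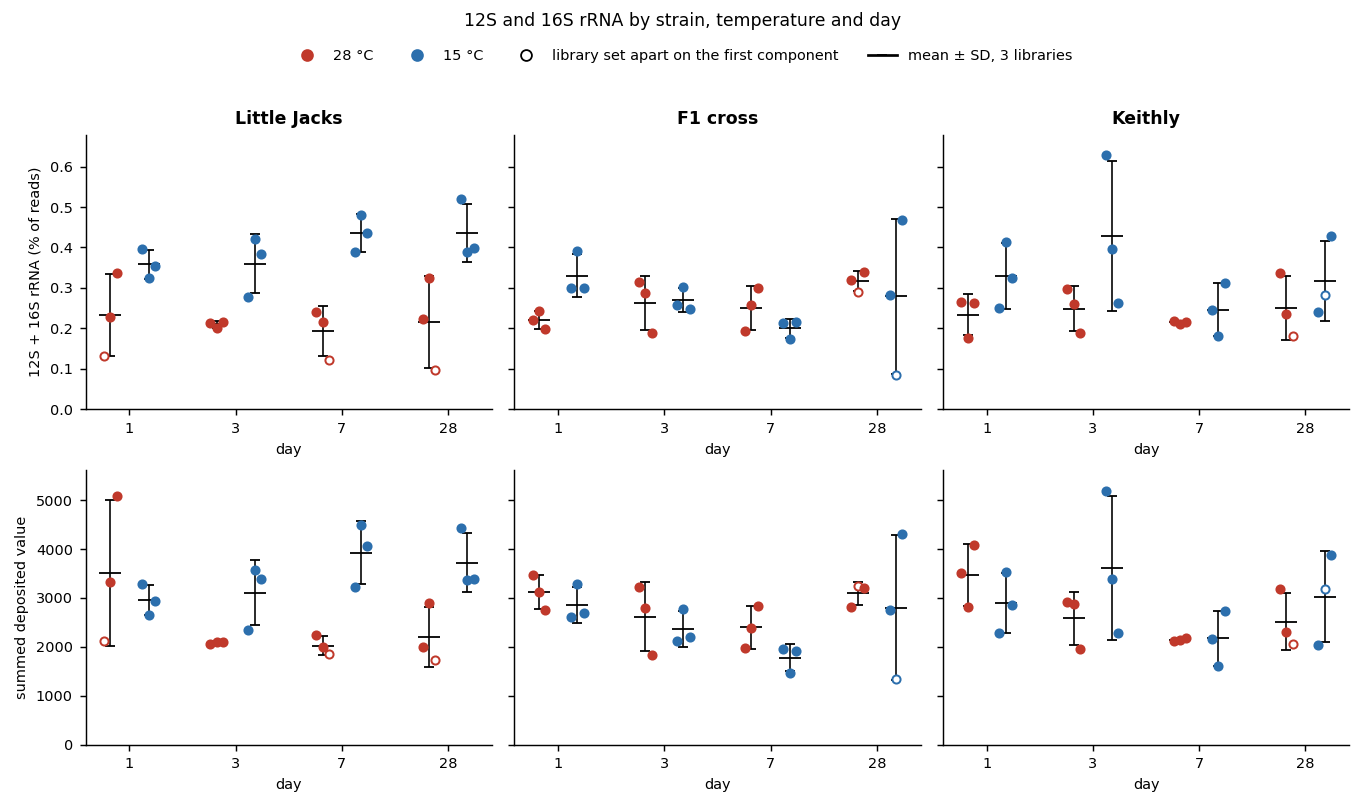
Share of recovered reads (top, percent) and summed deposited value (bottom) of the 6 features by strain, temperature and day; each point is 1 library, bars are the mean ± SD of 3, and open points are the 7 deviating libraries. In Little Jacks the 28 °C libraries lie below the 15 °C libraries from day 3 on in both measures; in the F1 cross and Keithly the temperatures overlap on most days.

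The authors' library table allows a denominator that does not depend on what matched the transcriptome. Per 1 M quality reads, summed over the 3 libraries of a group, Little Jacks had 526, 596, 533 and 447 reads of the 6 features at 28 °C on days 1, 3, 7 and 28. At 15 °C it had 876, 564, 954 and 1038, so day 3 was the exception to the lower level at 28 °C. The F1 cross had 844, 621, 891 and 333 at 28 °C, against 748, 232, 259 and 561 at 15 °C. It was higher at 28 °C on days 1, 3 and 7 and lower on day 28. Keithly had 879, 566, 328 and 520 at 28 °C, against 810, 898, 659 and 364 at 15 °C, with no common direction. These group sums have no error. They still count matched reads, and the matched percent in the F1 cross was 30.0% ± 12.2 at 28 °C, against 17.8% ± 8.45 at 15 °C (SD, n = 12 each). The part of the matched percent in these sums was not tested.

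Ratios within a library are free of the library scaling. The 12S features together had 13.6 ± 2.25 reads per 16S read in the F1 cross at 28 °C, against 19.2 ± 7.81 at 15 °C (SD, n = 12 each). The difference was -0.43 (log2, SE 0.16, exact permutation adjusted p = 0.0382), lower at 28 °C on 3 of 4 days. The highest ratios were 37.4 and 32.4, in replicate 2 of day 7 and replicate 1 of day 28 at 15 °C. The call was lost on leaving out 12 of the 24 libraries, 1 at a time, with differences of -0.34 to -0.45 and adjusted p up to 0.0938 in these 12, and without the deviating libraries (-0.47, adjusted p = 0.0847). Little Jacks had 15.1 ± 4.31 at 28 °C and 14.0 ± 3.05 at 15 °C, a difference of 0.07 (adjusted p = 0.782). Keithly had 13.7 ± 2.94 at 28 °C and 15.6 ± 6.42 at 15 °C, a difference of -0.10 (adjusted p = 0.782).

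The ratio of mitochondrial to nuclear ribosomal reads was higher at 28 °C in the F1 cross. On day 1 it was 0.932, 1.15 and 1.27 at 28 °C, against 0.242, 0.574 and 0.436 at 15 °C. On day 3 it was 2.52, 1.14 and 1.12, against 0.251, 0.509 and 0.540. The groups did not overlap on either day. On day 7 it was 1.88, 0.712 and 1.48 at 28 °C, against 0.649, 0.649 and 0.255 at 15 °C, again without overlap. On day 28 it was 0.555, 1.39 and 1.53, against 1.07, 0.368 and 0.597, with overlap. The averaged difference was 1.38 (log2, SE 0.28, exact permutation adjusted p = 0.0006), a 2.60-fold higher ratio at 28 °C, on 4 of 4 days. It passed in all 27 alternatives, at 0.90 to 1.496 with adjusted p from 0.0003 to 0.00875.

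The sides of this ratio moved unequally. In the F1 cross the nuclear rRNA_28S_1 fell by 1.25 at 28 °C (log2, SE 0.24, limma adjusted p = 0.000474). The other nuclear features did not pass, with -0.40 for rRNA_18S_1 (limma adjusted p = 0.508) and 0.46 for rRNA_28S_2 (0.424). The 3 nuclear features together took 0.235% ± 0.126 of reads at 28 °C, against 0.617% ± 0.323 at 15 °C (SD, n = 12 each). The mitochondrial share differed by 0.04 over the same libraries. In Little Jacks the ratio of mitochondrial to nuclear reads was 0.805 ± 0.428 at 28 °C and 0.856 ± 0.410 at 15 °C, and the difference of -0.15 had an exact permutation adjusted p of 0.782. In Keithly the averaged difference was -0.09 (adjusted p = 0.860). It averaged days of opposite sign, at -0.40, -0.69 and -0.64 on days 1, 3 and 7 and 1.37 on day 28. On day 28 the Keithly ratio was 0.904, 1.14 and 0.822 at 28 °C, against 0.145, 0.350 and 0.962 at 15 °C, with overlap. The value of 0.145 came from the library of 0.276 M recovered reads and that of 0.350 from a deviating library.

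**Figure D4:**
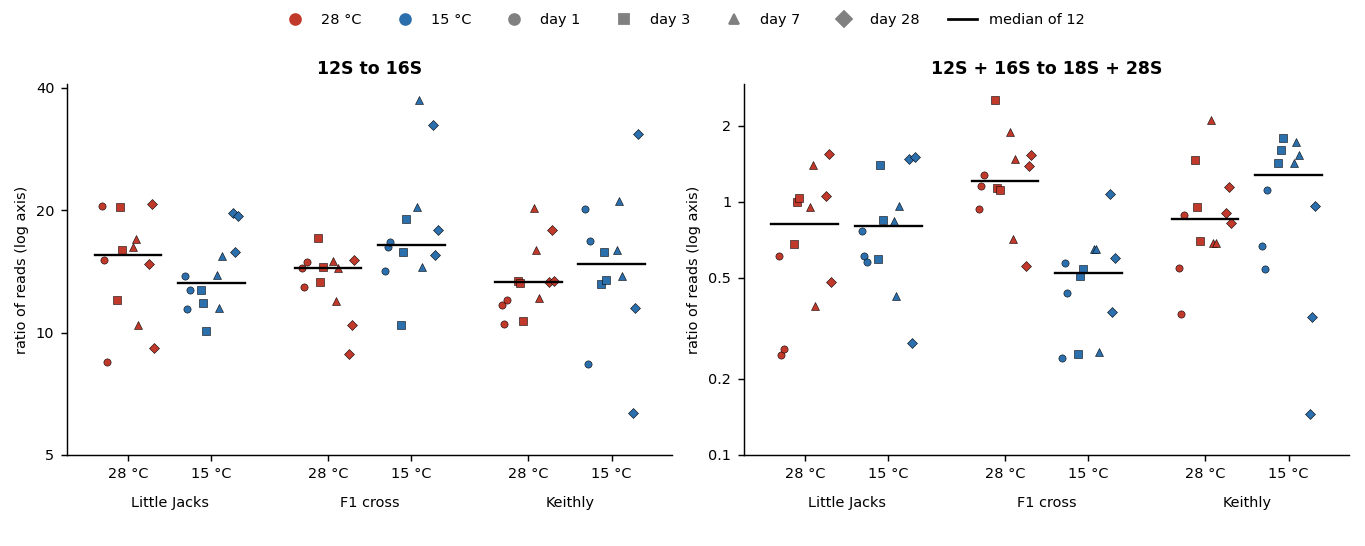
Ratio of 12S to 16S reads (left) and of mitochondrial to nuclear ribosomal reads (right), log axes, by strain and temperature; each point is 1 library, its shape gives the day and the bar is the median of 12. In the F1 cross the mitochondrial to nuclear ratio was higher at 28 °C than at 15 °C, with means of 1.31 and 0.512 and an overlap on day 28 alone; in the other strains the temperatures overlap widely.

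Within groups, the 2 mitochondrial RNAs varied together, as sums that share a library and its scaling. Over the deviations of the 72 libraries from their group means, the log2 sum of the 12S features and that of the 16S features had Pearson's r = 0.578 (permutation p = 0.00052, adjusted p = 0.00645 over 15 correlations) and Spearman's rho = 0.531 (permutation p = 0.0002, adjusted p = 0.0021). Without the 2 libraries farthest from the median 12S sum, r was 0.532, and without the deviating libraries it was 0.564. By strain r was 0.668 for Little Jacks, 0.647 for the F1 cross and 0.451 for Keithly (n = 24 each), with permutation adjusted p of 0.164, 0.0789 and 0.234. Spearman's rho was 0.429, 0.508 and 0.515 in the same order, with permutation adjusted p of 0.223, 0.169 and 0.152, so no strain passed on its own. In Little Jacks Pearson's r dropped to 0.284 without the 2 farthest libraries, so there it rests on them. The summed mitochondrial and the summed nuclear features had r = 0.228 (permutation p = 0.166, adjusted p = 0.311) and rho = 0.147 (permutation p = 0.321, adjusted p = 0.481), and r was 0.19 without the 2 farthest libraries.

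Between single features the deviations had r from 0.173 to 0.837, with a median of 0.623 over the 15 pairs, given as a description of features that share a library and its depth. The closest pair joined a 12S with a 16S feature, rRNA_12S_1 with rRNA_16S_3, at 0.837. rRNA_12S_2 had 0.623 with rRNA_16S_1 and 0.453 with rRNA_12S_3, and 0.318, 0.273 and 0.173 with the minor rRNA_16S_2, rRNA_12S_1 and rRNA_16S_3. Values this high also occurred with nuclear 28S features. rRNA_16S_1 and rRNA_28S_2 had r = 0.835, and the 18 pairs of a mitochondrial with a nuclear feature ran from -0.449 to 0.835 with a median of 0.568. Closeness among these rows was thus not limited to pairs of mitochondrial features.

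**Figure D5:**
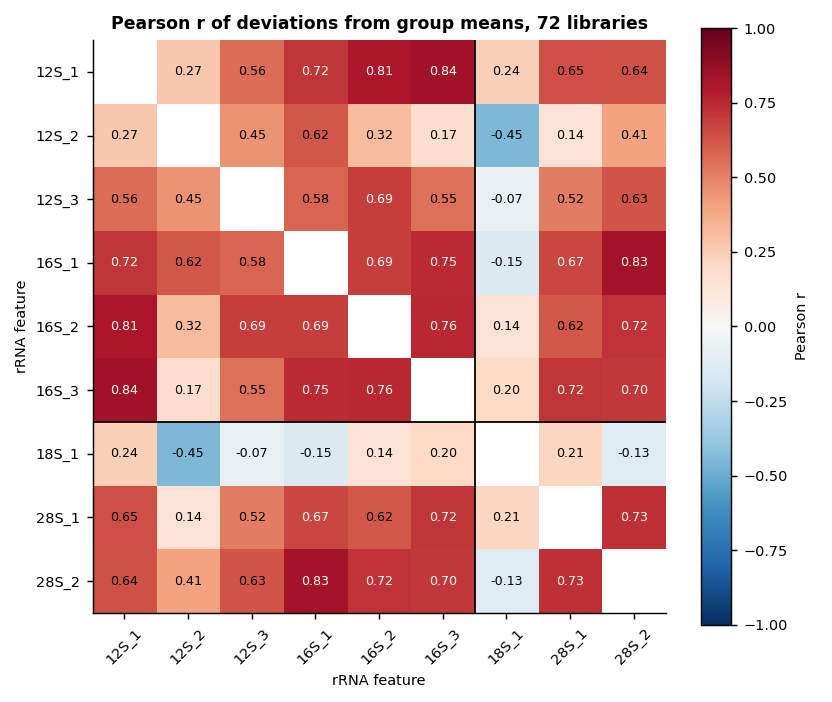
Pearson's r between the ribosomal features over the deviations of 72 libraries from their group means; the lines part the 6 mitochondrial from the 3 nuclear features. rRNA_12S_1 and rRNA_16S_3 are the closest mitochondrial pair at 0.837, and rRNA_12S_2 has its lowest mitochondrial value, 0.173, with rRNA_16S_3.

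Likeness to all features was ranked by Pearson's r over the 72 libraries, each centred on its strain, among the features with a mean value of at least 5 in each table. Of 15978 features, rRNA_16S_1 ranked 3rd, rRNA_12S_2 4th and rRNA_12S_3 5th by their r with the summed value of the other 5 members, at 0.760, 0.703 and 0.664. rRNA_16S_2 had 0.592, rRNA_12S_1 0.546 and rRNA_16S_3 0.511, at ranks 8, 23 and 45. Of the nuclear features, rRNA_28S_2 had r = 0.601 with the 6 together, rRNA_28S_1 0.358 and rRNA_18S_1 -0.157. The most like of all features was g00745, with r = 0.902 over all libraries and 0.913, 0.902 and 0.892 within Little Jacks, the F1 cross and Keithly. Its value in Little Jacks was 1012 ± 262 at 28 °C and 1548 ± 288 at 15 °C (SD, n = 12 each). The next was g00134, with r = 0.779. The lowest were g04444 at -0.569 and g00032 at -0.563. These identifiers carry no gene name, and each r describes libraries that share depth and scaling. Genes of the mitochondrial genome, of mitochondrial transcription and of the mitochondrial ribosomal proteins could not be counted, since 0 of the 25137 identifiers matched a gene name.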

How the data were processed

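Gill RNA was depleted of ribosomal RNA with Ribo-Zero and made into ScriptSeq libraries, per the labels' protocols. Per the submitters' processing notes, the tools were CASAVA 1.8, Bowtie and edgeR, with no version given for Bowtie or edgeR; the reference transcriptome is not given in the sources used here. What the authors deposited for each strain is a table of normalised signal, reads over effective library size. It is termed CPM in the descriptions, yet sums per column lay between 0.819 and 1.77 M. The authors' library table adds, per the labels of its columns, the percent of reads matched and the quality and matched reads, entered here as a score. Columns were tied to groups by name. For the day 1 group of the F1 cross at 28 °C the sample descriptions point to the table of Little Jacks, so its columns rest on their names alone. Rows without a name or value (5408 for Little Jacks, 5001 for the F1 cross, 4261 for Keithly) were left out.

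Values were whole multiples of the smallest value of a column, and 100% came out whole within 0.01 after division. Depth ran from 0.276 to 19.9 M recovered reads, and 3 reads corresponded to 0.132 to 9.24 units, which covers counting error only. limma 3.58.1 (R 4.3.3, trended prior) was fitted on log2(value + 0.5) to all features, 1 group mean each and the 24 libraries of a strain together, and calls are two-sided at a Benjamini-Hochberg adjusted p under 0.05. On this scale low features show too small a change. Strains were compared through their heat effects, each taken within its own table. Levels used recovered reads with TMM factors and the day as covariate. edgeR 4.0.16 (quasi-likelihood) called 8456 features of Little Jacks, 7089 of the F1 cross and 7166 of Keithly from recovered reads for heat averaged over days. Shares and ratios were tested by exact permutation within days (160000 arrangements, smallest p 1.25e-05), adjusted over 12 tests. Correlations used 100000 permutations with SciPy 1.17.1. No 2 libraries of a group agreed within sampling noise: the lowest chi-square per feature was 4.88.

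The members, the nuclear features they are set against and the tests were chosen with earlier results of these data known. All 6 members are named; further features are the 2 most and the 2 least like their summed value. The fit functions were run on simulated counts with known fold changes. The simulated counts held no deviating libraries, so this checked the functions and not how the fits behave under the spread of these data. A mean of logs replaces the log2 of a sum by the mean of the log2 values of its features. Other scalings, pseudocounts, filters and left-out libraries were tried as alternatives.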

Additional observations from a re-analysis of the deposited data

Results flagged for a closer look

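The difference of the averaged heat effects between Little Jacks and the F1 cross passed the test for 5 of the 6 features, which is why these results are listed here. limma called 9.94% of 23234 features in this comparison. The calls of rRNA_12S_1 and rRNA_16S_2 were lost on leaving out 28 and 25 of the 48 libraries, 1 at a time. That of rRNA_12S_2 was lost without the deviating libraries (limma adjusted p = 0.121). On the log2 scale, Little Jacks minus the F1 cross was -1.04 for rRNA_12S_1, -0.74 for rRNA_12S_2, -0.87 for rRNA_12S_3, -1.28 for rRNA_16S_1 and -1.19 for rRNA_16S_2. In each of the 5, the effect was negative in Little Jacks and positive in the F1 cross.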

How the results depend on the processing

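Of 1053 recomputed main results, 963 kept their direction and side of the threshold, or stayed within 1.5 times for a count. 28 lost the call, 2 gained it, 55 counts moved by over 1.5 times and 5 changed sign. Of 1842 recomputed effects of single features, 1703 kept both, 75 lost a call, 44 gained one and 20 changed sign. The cause of these changes was not tested. The limits are the depth in recovered reads, with rRNA_16S_2 at 3 reads or fewer in 2 libraries, the 7 deviating libraries, and the scaling.

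The share of reads in Keithly lost its call with the 10 most abundant features out of the denominator (-0.27), as a mean of log2 values (-0.32) and without the deviating libraries (-0.39), and leaving out single libraries gave -0.51 to -0.35. The F1 cross share turned to -0.12 without the deviating libraries, was 0.32 as a mean of logs and 0.17 with the 10 most abundant features out of the denominator, none called, and ran from -0.14 to 0.17 over left-out libraries. The summed value in Little Jacks lost its call as a mean of logs (-0.52) and without the deviating libraries (-0.39). In the F1 cross it gained one as a mean of logs (0.50), with 0.13 to 0.34 over left-out libraries, and in Keithly it turned to 0.0097 as a mean of logs. The 12S to 16S ratio of the F1 cross had -0.23 as a mean of logs and -0.47 without the deviating libraries, neither called, and -0.51 to -0.34 over left-out libraries. In Keithly this ratio ran from -0.23 to 0.051 and the mitochondrial to nuclear ratio from -0.26 to 0.084 over left-out libraries.

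Column-total scaling gave 6 averaged calls in Little Jacks, 0 in the F1 cross, 2 in Keithly and 4 for the F1 cross level at 15 °C. It moved the median averaged effect of all features by -0.40, -0.19 and -0.30 in the 3 strains, in this order. Apart from edgeR, the share of all features called under an alternative setting is not given, here or above. Such counts therefore describe only how far the calls moved. Without the deviating libraries Little Jacks had 5 averaged calls, 6 on single days and 1 for the change over days. A pseudocount of 5, or a filter to a mean value of 5, gave the F1 cross 2 averaged calls, and that filter gave Little Jacks 1 on single days. Fits on the 6 libraries of a day alone gave 2 in Little Jacks and 1 in Keithly. Over left-out libraries, averaged calls ran from 2 to 6 in Little Jacks and 1 to 4 in the F1 cross, single-day calls from 0 to 4, 0 to 2 and, in Keithly, 0 to 1. The 2 Keithly comparisons over time had 0 to 1, Little Jacks minus the F1 cross 3 to 6, and the F1 cross level at 15 °C 1 to 4.

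Averaged Keithly effects that changed sign were -0.20 for rRNA_12S_1, -0.32 for rRNA_16S_1 and -0.16 for rRNA_16S_2 under column-total scaling. rRNA_16S_1 had -0.0023 with median-of-ratios scaling, -0.080 in edgeR and -0.093 to 0.14 over left-out libraries. rRNA_16S_2 had -0.067 in edgeR, and rRNA_16S_3 had 0.081 without the libraries under 1 M reads and -0.25 to 0.081 over left-out libraries. A denominator of quality reads was not run per library, because rows of the library table could not be tied to single columns. No paired analysis was possible because the labels give no replicate numbers shared between groups.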
